A study of Mus musculus with 62 samples.

Results

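*Cyp11a1*, *Kcnj15* and *Art3* are 3 of the 10476 genes named in the table of read counts, and 16 of its 23877 transcripts belong to them (1 of *Cyp11a1*, 8 of *Kcnj15* and 7 of *Art3*). They were selected on their RNA-seq counts, which differed between C2C12 cells that overexpress RPL3L and C2C12 cells that overexpress RPL3, so the RNA-seq values of these cells are given as a description, without a test. Tests are given for Ribo-seq of the same kinds of cells and for the heart, which had no part in the choice. RPL3L is the heart and skeletal muscle paralog of RPL3, a protein of the large ribosomal subunit, and the study asked how ribosomes that contain it differ from ribosomes that contain RPL3.

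C2C12 cells are mouse myoblasts, the dividing precursors of skeletal muscle, kept as an established line. They had been infected with a retrovirus for mouse RPL3 (RPL3 OE), for mouse RPL3L (RPL3L OE) or without an insert (Control), all 3 groups had been selected with puromycin, and they were kept at low confluence. Each group had 3 RNA-seq and 3 Ribo-seq libraries, described in the study as biologically independent samples, and nothing in the labels ties an RNA-seq library to a Ribo-seq library, so that both may come from the same cultures. The hearts came from 4 male WT mice and 4 male *Rpl3l* KO mice (10 weeks of age, the deletion made in C57BL/6J zygotes), the latter homozygous for a frameshift deletion of exon 2, again with RNA-seq and Ribo-seq. Ribo-seq counts mRNA fragments protected by ribosomes.

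*Cyp11a1* encodes the mitochondrial side-chain cleavage enzyme that converts cholesterol to pregnenolone, the first step of steroid hormone synthesis, and is best known from adrenal cortex and gonads. *Kcnj15* encodes Kir4.2, an inwardly rectifying potassium channel subunit best known from epithelia such as that of the kidney. *Art3* encodes a member of the family of GPI-anchored ectoenzymes related to mono-ADP-ribosyltransferases and is known to be expressed in heart, skeletal muscle and testis. The 3 genes have no known step in common and lie on different chromosomes.

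In GRCm38, *Cyp11a1* lies on chromosome 9 (58006411 to 58027023), *Kcnj15* on chromosome 16 (95257558 to 95300260) and *Art3* on chromosome 5 (92331827 to 92414628), all on the plus strand. The isoform with the highest mean RNA-seq count stands for each gene here. It has 9 exons and 2120 nt for *Cyp11a1*, 4 exons and 5705 nt for *Kcnj15*, and 11 exons and 1600 nt for *Art3*. The isoforms of a gene shared reads: the 8 of *Kcnj15* had 2 different sets of C2C12 counts and the 7 of *Art3* had 4. Antisense transcripts overlap *Kcnj15* (*Gm31641*, *Gm49643*). Since the strand setting of the counting is not given in the sources used here, their reads cannot be told apart from those of *Kcnj15*. The chemokine gene *Cxcl10* (92346638 to 92348889) lies within *Art3* on the other strand. An *Art3* isoform that starts at 92388143, outside *Cxcl10*, had a mean C2C12 RNA-seq count of 15.1, as had the isoform used here.

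The sequence before the first start of *Kcnj15* and of *Art3* and 2 short stretches at a start of *Cyp11a1* are shown, to give the sequence near the starts of the transcripts that were counted. The first stretch of *Cyp11a1* lies before its RefSeq start at 58014952 and the second after it, and both lie downstream of the start of its GENCODE transcript, at 58014671. RefSeq gave 2 windows for *Cyp11a1*, 1 for *Kcnj15* and 3 for *Art3*, and the other window of *Cyp11a1* and the other 2 of *Art3* are not shown. All are from RefSeq promoter windows on GRCm38.p6, plus strand, 5′ to 3′, and all 3 genes had an entry. Capitals mark matches to TATAAA or TATAAG on the gene strand, and to AGGTCA (the core site of nuclear receptors, TGACCT on the other strand) or CANNTG (an E-box, the kind of site bound by myogenic factors such as MYOD1) on either strand.
*Cyp11a1*, chr9:58014912-58014941: gaggaaggggggAGGTCAccgctccatcag
*Cyp11a1*, chr9:58014957-58014986: tgagctggtggtTATAAGtgtggctctgga
*Kcnj15*, chr16:95257308-95257557: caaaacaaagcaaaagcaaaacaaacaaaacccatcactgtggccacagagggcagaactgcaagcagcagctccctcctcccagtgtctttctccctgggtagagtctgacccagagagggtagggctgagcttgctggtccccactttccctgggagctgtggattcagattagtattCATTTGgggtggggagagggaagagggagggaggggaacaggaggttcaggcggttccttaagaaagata
*Art3*, chr5:92331577-92331826: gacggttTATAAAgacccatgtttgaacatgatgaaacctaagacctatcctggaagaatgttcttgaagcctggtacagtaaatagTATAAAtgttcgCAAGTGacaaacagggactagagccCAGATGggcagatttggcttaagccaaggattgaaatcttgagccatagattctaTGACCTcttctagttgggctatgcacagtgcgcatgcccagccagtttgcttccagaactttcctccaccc

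AGGTCA was in 1 of the 2 windows of *Cyp11a1* (28 bases before the start), in 1 of the 3 windows of *Art3* (71 bases before the start, on the other strand) and not in that of *Kcnj15*. Of all 32851 promoter windows of 300 bases, 16.3% held it, a share per window and not per gene. The E-box pattern was in windows of all 3 genes: at 4 places in the window of *Cyp11a1* that is not shown, once before *Kcnj15*, and in 2 of the 3 windows of *Art3*. It was in 72.3% of all windows. TATAAG, in 4.42% of all windows, stood 17 bases after the RefSeq start of *Cyp11a1*, and TATAAA, in 8.32%, was in 2 of the 3 windows of *Art3*. A match of letters is no evidence of a bound site.

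The overexpressed gene checked the labels. *Rpl3l* had 2018 CPM ± 30.5 (SD, n = 3) in RNA-seq of RPL3L OE cells, 0.404 ± 0.367 in RPL3 OE cells and 0.363 ± 0.200 in control cells, where CPM is the depth-scaled count, counts-per-million, with library sizes adjusted by TMM. In the heart it fell from 459 CPM ± 80.8 in WT to 30.2 ± 7.05 in KO mice (n = 4 each). *Rpl3* is not analysed here, so that the label RPL3 OE had no such check. Total counts per C2C12 RNA-seq library were 14324795 to 29746110 in control cells, 7647102 to 11669868 in RPL3 OE cells and 8091836 to 9715596 in RPL3L OE cells, so the values of control cells rest on the deepest libraries. Those of Ribo-seq were 3167026 to 6093268.

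The level of *Cyp11a1* mRNA was low in RPL3 OE cells and alike in the other two groups. Its counts were 75, 65 and 135 in control cells, 5, 0 and 5 in RPL3 OE cells and 49, 31 and 41 in RPL3L OE cells. These are 4.61 CPM ± 0.105, 0.364 ± 0.335 and 4.59 ± 1.29 (SD, n = 3). All 3 RPL3 OE libraries lay below all 6 others, and the replicate with a count of 0 allows up to 0.352 CPM, counting error only. Control and RPL3L OE libraries overlapped, with RPL3L OE replicate 1 the highest of all 9 at 6.03 CPM and RPL3L OE replicates 2 and 3 below the control cells at 3.54 and 4.20 CPM.

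On the log2 scale, the difference in *Cyp11a1* mRNA of RPL3 OE minus control cells was −3.64 (SE 0.38). That of RPL3L OE minus RPL3 OE cells was 3.62 (SE 0.40), and that of RPL3L OE minus control cells was −0.02 (SE 0.22, 95% interval −0.44 to 0.41). By mean CPM, RPL3 OE cells had 7.88% of the control level. Among 5728 genes with 1 transcript each, *Cyp11a1* had the lowest difference between RPL3 OE and control cells and ranked 3087th from the highest between RPL3L OE and control cells. These ranks use libraries that chose the gene and are a description.

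*Art3* mRNA was ordered RPL3 OE, control, RPL3L OE. Its counts were 13, 20 and 17 in control cells, 2, 0 and 0 in RPL3 OE cells and 26, 28 and 30 in RPL3L OE cells. These are 0.933 CPM ± 0.429, 0.0880 ± 0.152 and 3.16 ± 0.0730 (SD, n = 3), and no group overlapped another. The 3 RPL3L OE libraries lay within 3.07 to 3.20 CPM, and the counts of 0 allow up to 0.352 and 0.259 CPM in RPL3 OE replicates 2 and 3.

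With 2 counts in all RPL3 OE libraries together, the pooled CPM of *Art3* was 43.7 times as high in RPL3L OE as in RPL3 OE cells, with an exact 95% interval of 11.7 to 366 for counting error only. In control cells it was 11.6 times as high as in RPL3 OE cells (3.04 to 98.2). The log2 difference of RPL3L OE minus control cells was 1.87 (SE 0.33), the second highest of 5728 genes, below *Rpl3l*. This rank too uses libraries that chose the gene and is a description. *Art3* reached the count minimum for the ranking only through RPL3L OE cells, with 84 counts there and 50 in control cells.

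*Kcnj15* mRNA was high in RPL3 OE cells and alike in the other two groups. Its counts were 5, 9 and 6 in control cells, 20, 19 and 28 in RPL3 OE cells and 5, 4 and 2 in RPL3L OE cells. These are 0.383 CPM ± 0.224, 2.43 ± 0.205 and 0.426 ± 0.207 (SD, n = 3). The RPL3 OE libraries, at 2.23 to 2.64 CPM, lay above all others, which reached 0.633 CPM. With a mean count of 10.9, *Kcnj15* lay just above the minimum of 10 for the fit.

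The log2 difference in *Kcnj15* mRNA was 2.80 (SE 0.40) for RPL3 OE minus control cells, the highest of 5728 genes. It was −2.52 (SE 0.47) for RPL3L OE minus RPL3 OE cells and 0.28 (SE 0.61, 95% interval −0.92 to 1.48) for RPL3L OE minus control cells. The last interval is wide because both groups had single-digit counts. *Kcnj15* reached the count minimum only through RPL3 OE cells, with 67 counts there, 20 in control and 11 in RPL3L OE cells. Its rank uses the RPL3 OE libraries that chose it, so the rank is a description.

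Thus in RNA-seq all 3 genes had groups that did not overlap between RPL3L OE and RPL3 OE cells and between RPL3 OE and control cells, and 1, *Art3*, between RPL3L OE and control cells. Over all 14432 transcripts tested, edgeR called 27%, 16.1% and 9.26% in these contrasts at an adjusted p under 0.05. These are shares of calls, another measure than groups without overlap, and the share of all transcripts without overlap is not given here. Since these libraries also chose the members, nothing is read from their counts. The RPL3 OE libraries take part in both of the contrasts with the larger values.

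**Figure D1:**
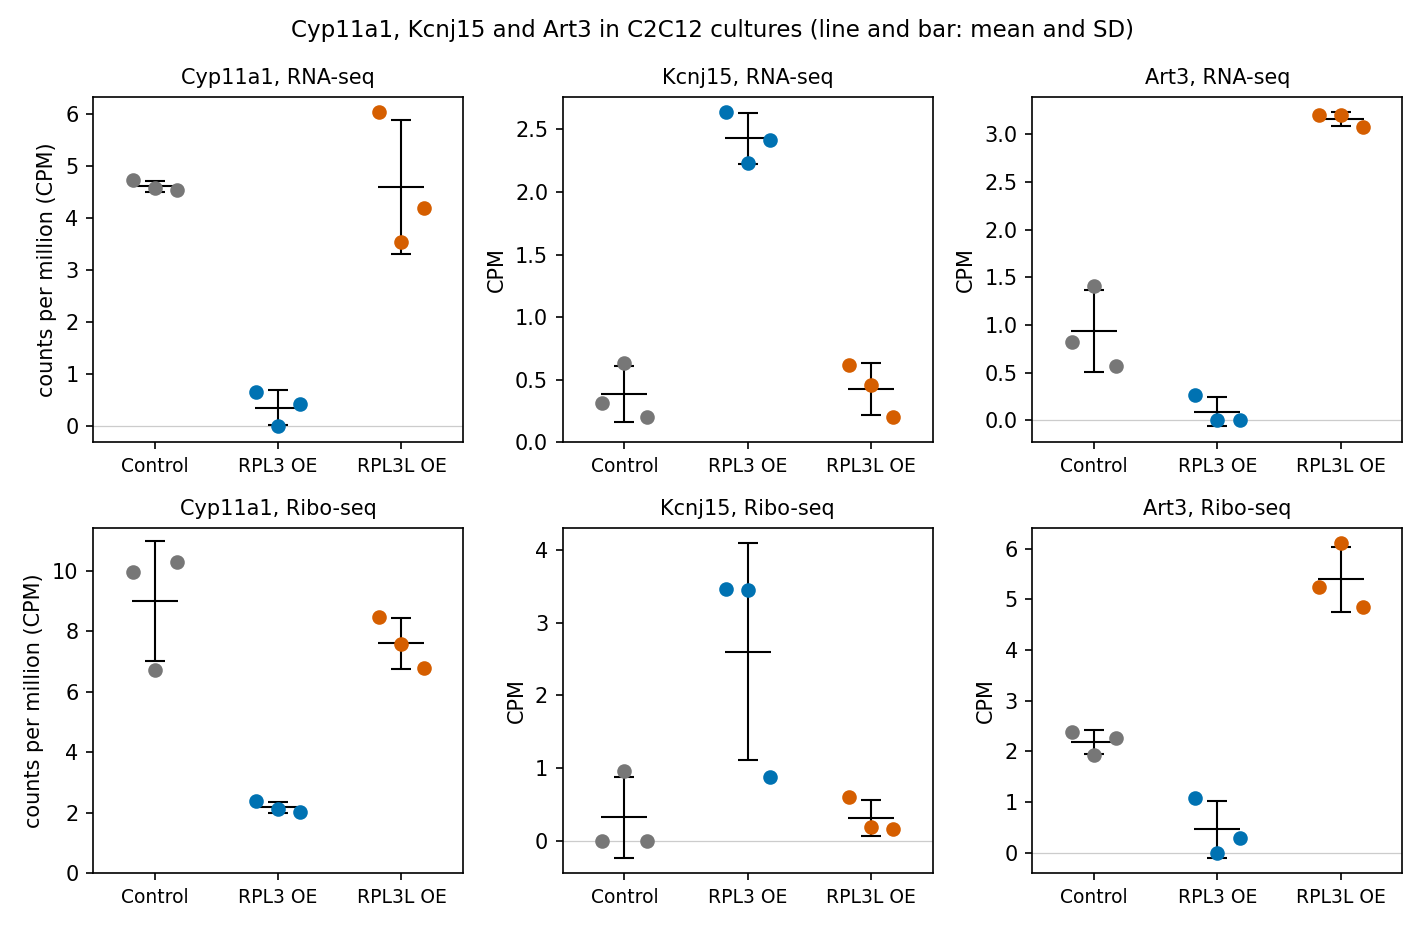
CPM of *Cyp11a1*, *Kcnj15* and *Art3* in each C2C12 library (points), with mean and SD of the 3 libraries of a group (line and bar), for RNA-seq in the upper row and Ribo-seq in the lower row. In both assays RPL3 OE cells had the lowest *Cyp11a1* and *Art3* and the highest *Kcnj15*, and RPL3 OE replicate 3 stood below the other two in *Kcnj15* Ribo-seq.

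Ribosome footprints were counted in libraries that were not used for the choice. As in RNA-seq, RPL3 OE cells had the lowest mean of *Cyp11a1* and *Art3* and the highest mean of *Kcnj15*. For *Cyp11a1* the Ribo-seq counts were 42, 21 and 32 in control cells, 11, 13 and 7 in RPL3 OE cells and 42, 41 and 42 in RPL3L OE cells, or 9.0 CPM ± 1.97, 2.19 ± 0.178 and 7.61 ± 0.841. The 3 RPL3 OE libraries lay below the other 6, at 2.04 to 2.39 CPM against 6.73 to 10.3 CPM. By the quasi-likelihood test of edgeR, *Cyp11a1* footprints differed by −2.04 on the log2 scale between RPL3 OE and control cells (4.10-fold lower, SE 0.28, adjusted p = 1.85e-06) and 3.42-fold higher in RPL3L OE than in RPL3 OE cells (1.77, SE 0.27, adjusted p = 5.86e-06). Between RPL3L OE and control cells the groups overlapped and the difference was −0.26 (SE 0.21, 95% interval −0.68 to 0.15, adjusted p = 0.484).

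For *Art3* the Ribo-seq counts were 10, 6 and 7 in control cells, 5, 0 and 1 in RPL3 OE cells and 26, 33 and 30 in RPL3L OE cells. These are 2.18 CPM ± 0.233, 0.459 ± 0.561 and 5.39 ± 0.647 (SD, n = 3), and again no group overlapped another. The gene reached the count minimum for the test only through RPL3L OE cells, where it was high, so its calls are a description. *Art3* footprints were 11.9-fold higher in RPL3L OE than in RPL3 OE cells (log2 difference 3.58, SE 0.46, edgeR adjusted p = 3.13e-07) and 2.43-fold higher than in control cells (1.28, SE 0.35, adjusted p = 0.0142). Against control cells, those of RPL3 OE cells were 4.91-fold lower (−2.30, SE 0.60, adjusted p = 0.00922). The last 2 calls depend on single libraries: without RPL3 OE replicate 2 the fall had an adjusted p of 0.0940, and without control replicate 2 or RPL3L OE replicate 2 the rise over control cells had 0.0631 or 0.0549.

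For *Kcnj15* the Ribo-seq counts were 0, 3 and 0 in control cells, 16, 21 and 3 in RPL3 OE cells and 3, 1 and 1 in RPL3L OE cells. These are 0.320 CPM ± 0.555, 2.60 ± 1.49 and 0.317 ± 0.249 (SD, n = 3). RPL3 OE replicates 1 and 2 stood apart at 3.47 and 3.45 CPM, whereas RPL3 OE replicate 3, at 0.875 CPM, lay above the RPL3L OE libraries and below control replicate 2, at 0.961 CPM. With a mean count of 5.33, the gene was below the minimum for the fit.

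The pooled *Kcnj15* footprints of RPL3 OE cells were 9.38 times those of RPL3L OE cells (exact 95% interval 3.70 to 30.4) and 9.85 times those of control cells (3.14 to 49.8), for counting error only. In an exact permutation test of the CPM (two-sided), the contrast with RPL3L OE cells had p = 0.1, the smallest that 3 against 3 libraries allow, and that with control cells p = 0.200, with adjusted p of 0.350 and 0.467 over the 7 exact tests made. An edgeR fit without the count minimum gave an adjusted p of 0.000939 and 0.00586. *Kcnj15* reached the total of 10 counts for that fit only through RPL3 OE cells. It had 40 footprints there, 5 in RPL3L OE and 3 in control cells, so nothing is read from these adjusted p-values. No fold is given between RPL3L OE and control cells, where 0 to 3 footprints a library were counted in both groups.

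Both genes that could be fitted, *Cyp11a1* and *Art3*, were thus called in Ribo-seq between RPL3L OE and RPL3 OE cells, as were all 8 of their transcripts, against 18.9% of the 13802 transcripts tested. Both were called between RPL3 OE and control cells, against 10.6%, and *Art3* alone between RPL3L OE and control cells, against 11.1%. The 7 *Art3* isoforms share reads, and their log2 differences between RPL3L OE and RPL3 OE cells lay within 3.36 to 3.58. *Art3* reached the count minimum only through RPL3L OE cells, with 89 footprints there, 23 in control and 6 in RPL3 OE cells. *Kcnj15* missed that minimum. The filter thus had a part in which genes could be called, and nothing is read from the number called. Bulk counts cannot tell fewer cells that carry an mRNA from less of it in each cell.

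Footprints of *Cyp11a1* fell less than its mRNA. Of the control level, RPL3 OE cells had 7.88% of the mRNA and 24.3% of the footprints, and for *Art3* 9.43% and 21.0%. RPL3L OE cells had 99.5% and 84.5% of *Cyp11a1* mRNA and footprints, and 338% and 247% for *Art3*. For *Kcnj15* in RPL3 OE cells, the values were 633% and 811%.

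Translational efficiency (TE), the change in footprints beyond that in mRNA, is also a description, since it uses the same mRNA counts. The log2 difference in TE of RPL3 OE minus control cells was 1.58 (SE 0.55) for *Cyp11a1* and 0.98 (SE 1.10) for *Art3*. That of RPL3L OE minus RPL3 OE cells was −1.83 (SE 0.56) and −1.58 (SE 1.10), and that of RPL3L OE minus control cells −0.25 (SE 0.31) and −0.59 (SE 0.50). All the *Art3* values lay within 2 SE of 0, and *Kcnj15* had too few footprints for the fit. The values of *Cyp11a1* against RPL3 OE cells rest on 10 mRNA reads there. *Rpl3l* in control cells also had more CPM in Ribo-seq than in RNA-seq, 6.47 ± 1.82 against 0.363 ± 0.200, and the part of such counts in the TE of a nearly absent mRNA was not tested.

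Per kb of transcript, the order of the mRNA levels changed with the group. In control cells *Cyp11a1* had 2.18 CPM per kb, *Art3* 0.583 and *Kcnj15* 0.0672. In RPL3 OE cells *Kcnj15* was the highest with 0.426 CPM per kb, above *Cyp11a1* with 0.172 and *Art3* with 0.0550. In RPL3L OE cells *Cyp11a1* and *Art3* had 2.17 ± 0.608 and 1.97 ± 0.0456 CPM per kb, which did not differ beyond their spread, and *Kcnj15* had 0.0746.

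Over the 9 C2C12 RNA-seq libraries, log2 CPM (prior count of 2) of *Cyp11a1* and *Art3* had a Pearson r of 0.860, *Cyp11a1* and *Kcnj15* of −0.854, and *Kcnj15* and *Art3* of −0.751. The points fall into the 3 groups, so these values describe the differences between groups and carry no test. Most like *Cyp11a1* among 5728 genes were *Marcksl1* (r = 0.973), which encodes a MARCKS-related actin regulator, *Arid2* (0.972), a subunit of the PBAF chromatin remodelling complex, and *Cd40* (0.969), a receptor of the TNF receptor family. Most like *Kcnj15* were *Pdia3* (0.985), a protein disulfide isomerase of the endoplasmic reticulum, *Wnt4* (0.975), a secreted WNT ligand, and *Pitpnb* (0.975), a phosphatidylinositol transfer protein. Most like *Art3* were *Zfp980* (0.983), named as a zinc finger protein, *Loxl2* (0.982), a lysyl oxidase of the extracellular matrix, and *Ube2c* (0.981), a ubiquitin-conjugating enzyme of mitosis.

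A like profile did not mean a like size. *Cd40* came nearest to *Cyp11a1*: its mRNA had a log2 difference of −3.09 (SE 0.37, edgeR adjusted p = 7.27e-10) between RPL3 OE and control cells and 0.38 (SE 0.22, adjusted p = 0.323) between RPL3L OE and control cells. *Cd40* footprints fell as well in RPL3 OE cells, with a log2 difference of −2.44 (SE 0.38, adjusted p = 1.51e-05). *Marcksl1* and *Arid2* mRNA fell by only 0.31 and 0.24 (adjusted p of 2.22e-06 and 0.000456). *Loxl2* shared the order of *Art3*, with −0.95 (SE 0.08, adjusted p = 1.53e-14) in RPL3 OE and 0.57 (SE 0.07, adjusted p = 1.79e-09) in RPL3L OE cells against control cells, and *Wnt4* rose in RPL3 OE cells by 1.17 (SE 0.21, adjusted p = 1.18e-05). These genes were picked for their profile in the same libraries, so their mRNA calls are a description of that choice.

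**Figure D2:**
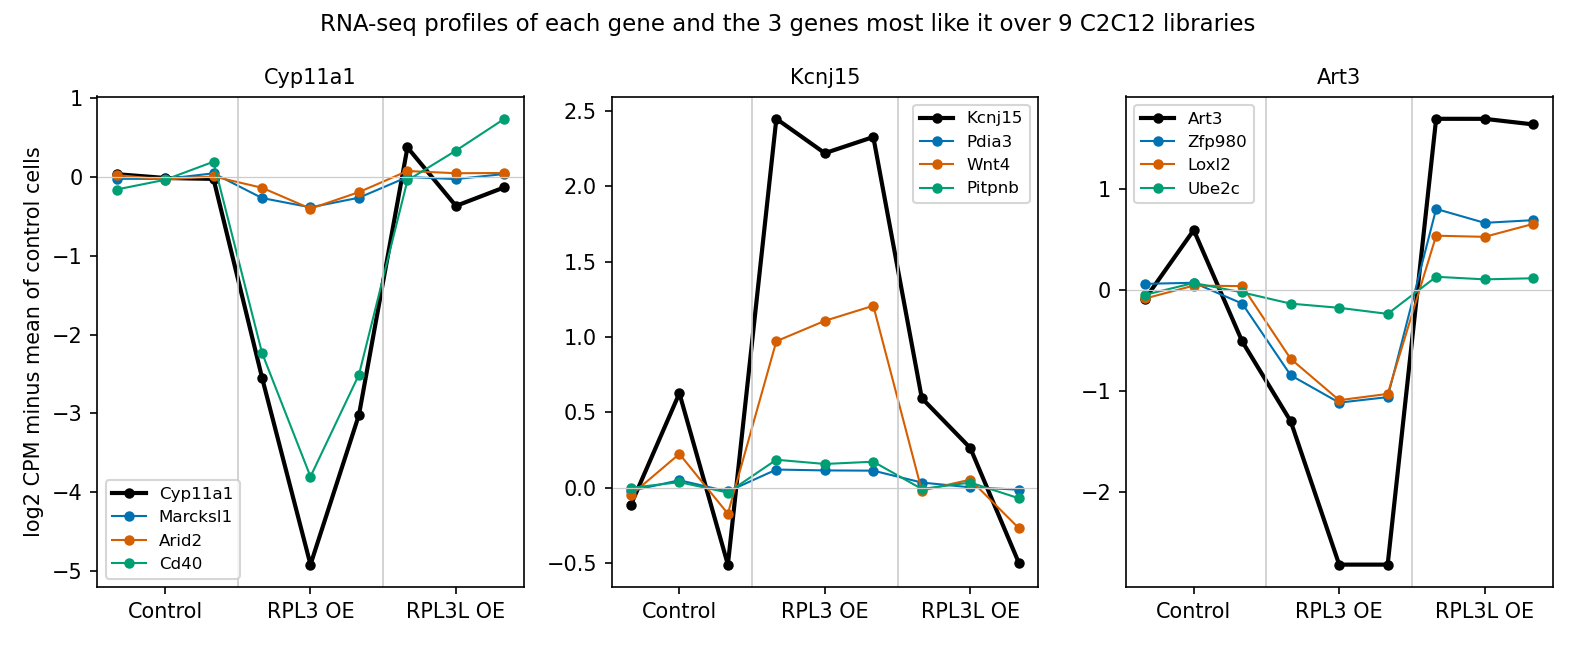
RNA-seq log2 CPM minus the mean of the control libraries for each gene (black) and the 3 genes with the highest Pearson correlation with it, over the 9 C2C12 libraries in order of group. *Cd40* fell nearly as far as *Cyp11a1* in RPL3 OE cells, whereas *Marcksl1* and *Arid2* followed the same order with a difference of 0.31 and 0.24 on the log2 scale.

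Other genes of the same pathways had smaller mRNA differences, which follows from the choice of the members for theirs and is a description. Of 43 genes of steroid hormone synthesis, 13 were in the table and 8 could be tested in RNA-seq, and 0 of 8 were called by edgeR between RPL3L OE and RPL3 OE cells, against 27.6% of 5728 genes (2 at an unadjusted p under 0.05, *Tspo* and *Srd5a3*). *Tspo*, the outer mitochondrial membrane protein with the highest counts of the list, had a log2 difference of 0.10 (SE 0.04, adjusted p = 0.0745). The median difference of the list was −0.05, beside −0.01 over all genes. In Ribo-seq 4 of 8 were lower in RPL3L OE than in RPL3 OE cells, against 9.94% of genes, among them *Srd5a3* with −0.40 (SE 0.12, edgeR adjusted p = 0.0145), *Por* with −0.14 (SE 0.05, adjusted p = 0.0486) and *Cyb5a* with −0.24 (SE 0.09, adjusted p = 0.0480).

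Of 16 genes of inward rectifier channels, 6 were in the table and 1, *Kcnj12*, could be tested in RNA-seq. *Kcnj12*, which encodes the muscle channel subunit Kir2.2, had a log2 difference of −0.17 (SE 0.34, adjusted p = 0.771) between RPL3L OE and RPL3 OE cells. Of 27 genes of ADP-ribosylation, 13 were in the table and 11 could be tested. Of these, 1 was called between RPL3L OE and RPL3 OE cells, against 27.6% of all genes. It was *Parp6*, lower in RPL3L OE cells by 0.33 on the log2 scale (SE 0.11, adjusted p = 0.0184). *Tnks2*, a tankyrase and the member of the list with the highest counts, had 0.08 (SE 0.04, adjusted p = 0.169). The median of this list was 0.03.

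The genes that start within 500 kb of the members had smaller mRNA differences. The choice of the members for their RNA-seq differences makes this likely for any other genes, so nothing is read from it. Of the 17 such genes with counts, 12 could be tested in RNA-seq, and 4 of 12 were called between RPL3L OE and RPL3 OE cells, against 27.6% of genes. The largest difference among them was that of *Insyn1*, 462 kb downstream of *Cyp11a1*, with −0.62 (SE 0.10, adjusted p = 6.61e-07). *Stbd1*, a glycogen-binding protein gene 188 kb downstream of *Art3*, had 0.60 (SE 0.10, adjusted p = 9.82e-07), the sign of *Art3*. *Uso1*, at −194 kb from *Art3*, had −0.19 (SE 0.05, adjusted p = 0.00304). *Ets2*, a transcription factor gene 402 kb downstream of *Kcnj15*, had 0.19 (SE 0.07, adjusted p = 0.0382), opposite in sign to *Kcnj15*.

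Nearest to *Cyp11a1* was *Stra6*, at 36.8 kb, which had too few counts for the test. The nearest that could be tested were *Sema7a*, at −66.3 kb, and *Ubl7*, at −95.4 kb. *Sema7a*, a membrane-anchored semaphorin gene, had 0.05 (SE 0.05, adjusted p = 0.526) between RPL3L OE and RPL3 OE cells and rose over control cells both in RPL3 OE cells, by 0.47 (SE 0.05, adjusted p = 1.88e-12), and in RPL3L OE cells, by 0.52 (SE 0.05, adjusted p = 1.05e-13). *Ubl7* had 0.06 (SE 0.07, adjusted p = 0.581). In Ribo-seq 1 of 12 was called in this contrast, *Stbd1* with 0.43 (SE 0.09, adjusted p = 0.000984), against 19.5% of genes. *Cyp1a1*, another cytochrome P450 gene, had the highest Ribo-seq difference of any neighbour, 2.23 between RPL3L OE and control cells (SE 0.83, adjusted p = 0.0803). Genes on the minus strand of these regions are not analysed here.

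**Figure D3:**
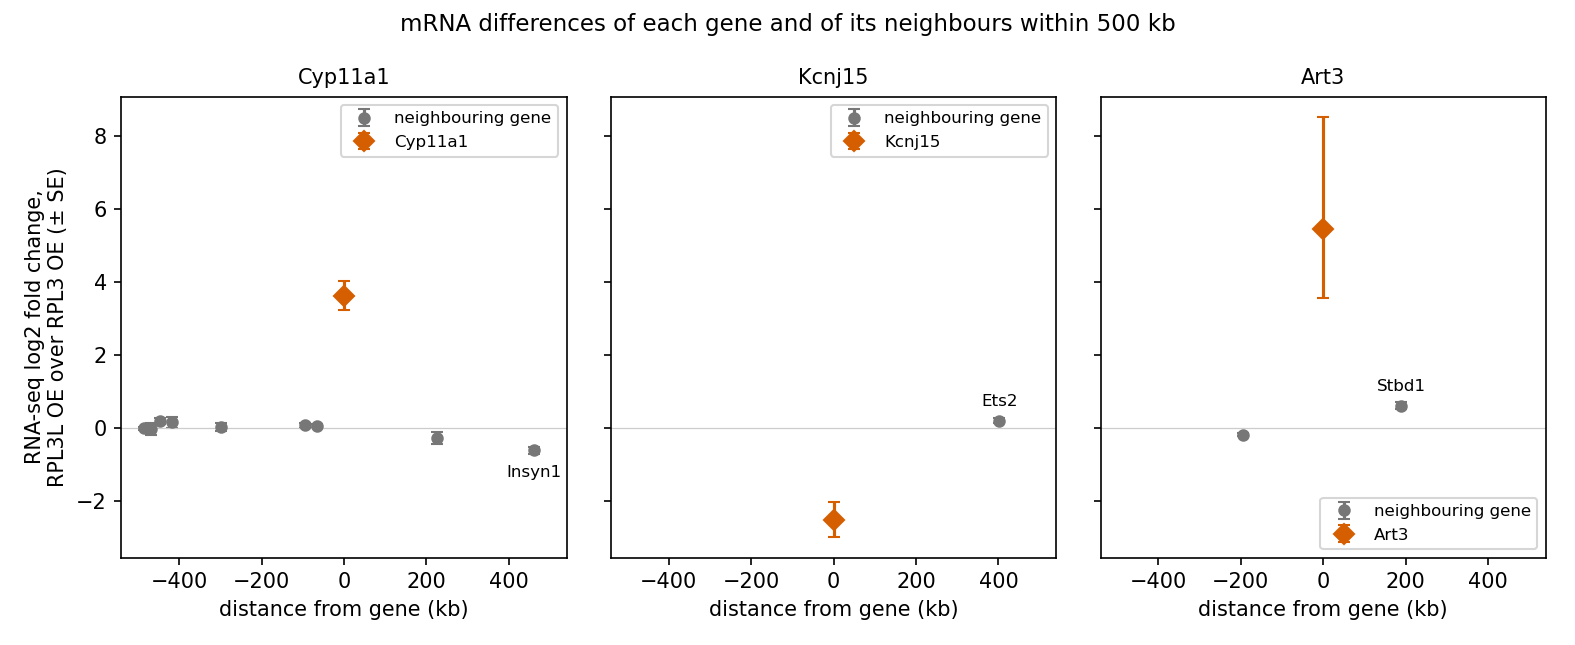
RNA-seq log2 fold change of RPL3L OE over RPL3 OE cells against the distance from *Cyp11a1*, *Kcnj15* and *Art3* (kb, negative upstream), for the gene itself (diamond) and its tested neighbours (grey). Bars are SE, except for *Art3*, where the diamond is the log2 ratio of pooled counts (5.45) with its 95% counting interval; the neighbours lay within −0.62 to 0.60.

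Markers of the cell type moved with the groups. Of 14 myoblast markers 7 were in the table, and their summed RNA-seq level was 927 to 955 CPM in control cells, 671 to 722 in RPL3 OE cells and 1102 to 1109 in RPL3L OE cells. Of the 7, 6 were higher in RPL3L OE than in RPL3 OE cells, among them *Myod1*, the master regulator of the myogenic lineage, by 0.79 on the log2 scale (SE 0.07, edgeR adjusted p = 2.99e-15), and 6 fell in RPL3 OE cells against control cells, against 13.3% of genes called higher and 8.28% called lower. This is the order of *Art3*, and its part in the differences of the members was not tested.

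In RNA-seq, markers of steroidogenic cells, macrophages and endothelium were near 0. Of 8 markers of steroidogenic cells, *Star* and *Insl3* were in the table, and they summed to 0.205 to 1.29 CPM over the 9 libraries, with *Insl3* at 0 in all of them. Of 7 macrophage markers 3 were in the table and summed to 0.141 to 0.924 CPM, and 4 of 7 endothelial markers to 0.470 to 2.05 CPM. Of 7 adipocyte markers 4 were in the table, with *Adipoq* and *Lep* at 0, and they summed to 47.2 to 49.9 CPM in control cells, 45.4 to 52.5 in RPL3 OE cells and 34.4 to 38.8 in RPL3L OE cells. Of 10 cardiomyocyte markers 4 were in the table, and their sums were 222 to 229, 248 to 254 and 276 to 297 CPM. *Nppa* was at 0 in all groups, *Mybpc3* in control and RPL3 OE cells, and *Myl2* in RPL3 OE cells. The sum in RPL3 OE cells is thus *Tnnt2* alone, and only 1 of the 4 markers could be tested in RNA-seq. Ribo-seq sums of the endothelial markers were higher, with 4.83 to 7.05 CPM in control, 4.43 to 21.87 in RPL3 OE and 5.37 to 21.96 in RPL3L OE cells. Those of the macrophage markers were 1.42 to 1.93, 1.31 to 2.82 and 1.94 to 3.70 CPM. Those of the steroidogenic markers reached 0.712, 0.434 and 0.370 CPM.

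In the heart, *Art3* was an abundant mRNA whose level and footprints did not differ detectably with the loss of RPL3L. RNA-seq gave 503, 401, 250 and 342 CPM in the 4 WT hearts and 327, 362, 387 and 370 CPM in the 4 KO hearts, with all KO values within the WT range. The means were 374 CPM ± 106 and 361 ± 25.0 (SD, n = 4), or 234 and 226 CPM per kb, 401 times the CPM of control C2C12 cells in WT hearts, though the 2 tissues were not fitted together. The log2 difference of KO minus WT was −0.05 (SE 0.16, 95% interval −0.37 to 0.27, edgeR adjusted p = 0.999). Of 15394 transcripts tested 0.013% were called, namely 2 of *Rpl3l* (352 at an unadjusted p under 0.05, and 11 called by DESeq2).

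Footprints of *Art3* in the heart were 550, 531, 371 and 465 CPM in WT and 412, 520, 484 and 524 CPM in KO mice. Their log2 difference was 0.02 (SE 0.12, 95% interval −0.22 to 0.25, adjusted p = 0.968), where 0.764% of 12695 transcripts were called. For TE it was 0.06 (SE 0.22, 95% interval −0.38 to 0.50, adjusted p = 0.992). None of the 7 *Art3* isoforms was called in either assay.

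Disome-seq, which sequences mRNA protected by 2 stacked ribosomes, gave 94, 33, 55 and 23 *Art3* counts in WT and 104, 97, 28 and 30 in KO hearts, without a test. These are raw counts, with the 2 libraries of each heart summed. Total counts per library ranged from 19000 to 95167, so the raw counts cannot be compared between hearts as levels. *Cyp11a1* had 0 disome counts in all 8 hearts, and *Kcnj15* had 2 in 1 WT heart and 0 in the others.

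*Cyp11a1* was near the limit of counting in the heart. RNA-seq counts were 0, 0, 0 and 3 in WT and 2, 14, 2 and 6 in KO hearts, or 0.0535 CPM ± 0.107 and 0.414 ± 0.372 (SD, n = 4), with 3594696 to 14041366 total counts in WT and 10930435 to 22425296 in KO libraries. The counts of 0 in WT allow up to 0.531 to 0.860 CPM. An exact two-sided permutation test of the CPM gave p = 0.0857 (adjusted p = 0.350 over 7 tests, smallest possible p 0.0286), and KO replicates 1 and 3 lay below the WT value of 0.214 CPM. Footprint counts were 0, 0, 1 and 3 in WT and 0, 1, 0 and 2 in KO hearts (exact permutation p = 1.00).

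*Kcnj15* was as sparse. RNA-seq counts were 0, 1, 8 and 4 in WT and 13, 0, 8 and 11 in KO hearts, 0.485 CPM ± 0.633 and 0.574 ± 0.489, and the exact permutation test gave p = 0.857. Ribo-seq counts were 5, 10, 4 and 1 in WT and 3, 5, 1 and 2 in KO hearts, 1.97 CPM ± 1.5 and 1.41 ± 0.628 (exact permutation p = 0.629). The groups overlapped in both assays.

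**Figure D4:**
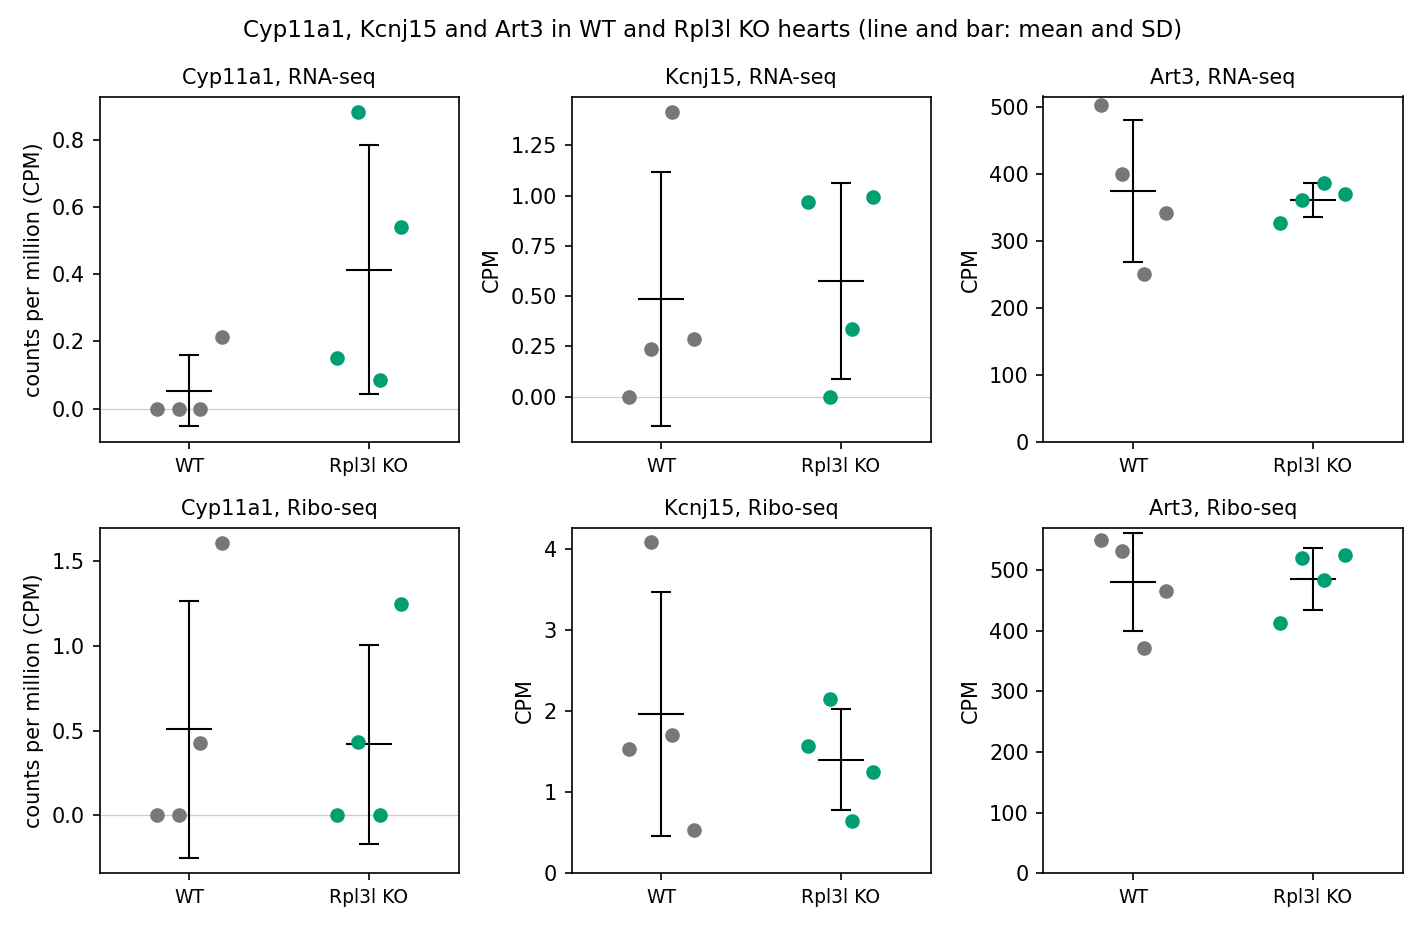
CPM of *Cyp11a1*, *Kcnj15* and *Art3* in each heart (points; 4 WT and 4 *Rpl3l* KO mice) with mean and SD, for RNA-seq in the upper row and Ribo-seq in the lower row. *Art3* lay between 250 and 550 CPM in every library, whereas *Cyp11a1* and *Kcnj15* stayed at or below 4.08 CPM, and the groups overlapped in all 6 panels.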

How the data were processed

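RNA-seq and Ribo-seq counts of C2C12 cells and hearts, and Disome-seq counts of hearts, were analysed. P-values measure the spread between these samples. The authors deposited read counts per transcript, not normalized. In Ribo-seq and Disome-seq they had trimmed adaptors with cutadapt, removed rRNA reads, aligned the rest with STAR (GRCm38.p6 transcriptome, mm10 genome, reads of several positions kept), collapsed duplicates by molecular identifier in UMI-tools and counted by featureCounts. Versions and strand setting, and a separate RNA-seq processing, are not given in the sources used here.

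Transcripts were named by GENCODE M21 identifier (23662 of 23877 matched, all on the plus strand), and 1 of 2 identical lines was used. The main test was edgeR's quasi-likelihood F test (version 4.0.16 in R 4.3.3) with TMM, a mean count of at least 10, all groups of an assay in 1 fit, and Benjamini-Hochberg adjustment over all transcripts (threshold 0.05, two-sided). Intervals are ± 1.96 SE. Members under the minimum had exact permutation tests (SciPy 1.17.1). Groups with at most 3 counts in every library were compared by pooled counts with conditional binomial intervals. TE came from the group-by-assay term of a joint fit.

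The members and lists were chosen with earlier results of these data known. By rule the text names the members, *Rpl3l*, genes starting within 500 kb, of each pathway list those called in RNA-seq (RPL3L OE minus RPL3 OE) and the one with most counts, and the 3 genes most correlated with each member. Other list and marker genes were named after their values were seen. Alternatives were DESeq2 1.42.0, library totals, no count minimum, 1 transcript per gene, a replicate block, only the groups compared and each replicate left out. Total counts limit the precision; intervals of pooled counts cover counting error only. The m6A-seq table, with 0 peaks on the members, was not used. The values of 1 gene of the steroid list are not reported here.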

Additional observations from a re-analysis of the deposited data

Results flagged for a closer look

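In RNA-seq of WT hearts, replicate 4 stood apart for *Cyp11a1*, with 0.214 CPM (3 counts) against 0 counts in each of the other 3 WT hearts. It is also the deepest WT library. With 0 counts in the other hearts, any count above 0 would have stood apart in this way.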

How the results depend on the processing

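Of 326 values of *Cyp11a1*, *Kcnj15* and *Art3* recomputed under an alternative, 316 kept their direction and side of the threshold or stayed within the replicate spread. Of the rest, 10 changed and 0 counted as reversed. Differences near 0 could change sign within that spread, as did *Cyp11a1* mRNA, from −0.25 to 0.14 (RPL3L OE minus control). The cause of the changes was not tested unless named. With each replicate left out in turn, *Art3* mRNA ranged from 4.56 to 8.40 (log2, RPL3L OE minus RPL3 OE) and from −6.53 to −2.70 (RPL3 OE minus control). *Art3* footprints ranged from 1.18 to 1.36 (RPL3L OE minus control) and from −4.07 to −1.53 (RPL3 OE minus control). *Kcnj15* mRNA ranged from −0.17 to 0.75 (RPL3L OE minus control) over 6 such fits. Without any 1 of the RPL3 OE replicates, *Kcnj15* fell under the count minimum and had no value. The log2 ratio of pooled *Kcnj15* footprints was −3.23 (RPL3L OE over RPL3 OE), ranged from −4.04 to −2.88 and was −3.07 in edgeR without the count minimum. Over control cells that of RPL3 OE was 3.30, ranged from 2.55 to 3.59 and was 3.13 without the minimum, and had no value without control replicate 2, which held all control counts. Calls over all transcripts, in the order RPL3L OE minus RPL3 OE, RPL3L OE minus control and RPL3 OE minus control, numbered 1587, 570 and 1000 in RNA-seq and 1090, 702 and 667 in Ribo-seq with 1 transcript per gene, where fewer were tested, and 1 and 6 in heart RNA-seq and Ribo-seq. DESeq2 called 861 in RNA-seq (RPL3L OE minus control), 1220, 675 and 718 in Ribo-seq, and 11 and 190 in the heart, where Ribo-seq without the minimum gave 63. With replicates left out, RPL3L OE minus control ranged from 823 (without control replicate 3) to 1364 in RNA-seq and from 965 (without control replicate 2) to 1702 in Ribo-seq, and heart Ribo-seq from 16 to 60. Replicate numbers are shared by the groups but did not pair the C2C12 samples: same-number correlations of deviations were −0.060 to 0.026 in C2C12 RNA-seq and −0.039 to 0.121 in Ribo-seq. In heart RNA-seq they were −0.216 to −0.059, and −0.322 to 0.323 for unlike numbers. Heart Ribo-seq had −0.188 to 0.318 and −0.305 to 0.253. Between the 2 heart assays they were −0.500 to 0.437 for like and −0.467 to 0.529 for unlike numbers. The main fit of heart TE did not pair libraries. With the replicate block, 3750, 1156 and 2166 transcripts were called in RNA-seq and 2597, 1542 and 1512 in Ribo-seq, 2 and 109 in the heart, and no call of a member changed. Low counts of *Kcnj15* and *Art3* limit what these libraries can show.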
